A study of Mus musculus with 12 samples.

Results

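*Tmem119*, *Olfml3*, *Gpr34*, *Crybb1*, *Selplg*, *Slco2b1*, *Sparc* and *Aif1* are 8 genes that mark microglia without belonging to purinergic signaling. They were taken by symbol from the 55487 genes counted, and all 8 were abundant enough to be tested among 16908 genes. All 8 also belong to the homeostatic genes that the study displays for these same libraries, so their choice was not independent of the data. In ARG1+ microglia, 7 of the 8 were lower than in ARG1- microglia, by 1.32-fold to 2.39-fold. The exception was *Slco2b1*, whose levels overlapped fully between the populations. The decrease was largest in *Aif1* and *Crybb1*, which have the shortest transcripts of the 8, and genes with short transcripts were lower in ARG1+ libraries in general. With the trend on coding transcript length and GC content removed, 6 of the 8 were still lower. *Selplg* (-0.12 on the log2 scale) and *Slco2b1* (-0.18) did not pass in that fit, so *Slco2b1* no longer stood alone.

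Microglia are the resident macrophages of the brain. They keep a program of surface receptors, transporters and secreted proteins that sets them apart from other macrophages, and many of these genes are used to recognize them in tissue. Of the 8 genes, *Tmem119* encodes a membrane protein that in the brain is found on microglia, *Gpr34* a G protein-coupled receptor for lysophosphatidylserine, *Selplg* the selectin ligand PSGL-1 and *Slco2b1* an organic anion transporter. *Olfml3* and *Sparc* encode secreted glycoproteins of the extracellular space. *Crybb1* encodes a β-crystallin, a family best known from the lens, and *Aif1* encodes IBA1, the calcium-binding actin-bundling protein that is the usual histological stain for microglia.

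All 12 libraries came from YARG mice at postnatal day 13, so that the ARG1- cells carried the same reporter allele as the ARG1+ cells. In this strain YFP is placed downstream of the *Arg1* stop codon and marks cells that use the locus. Tissue of the basal forebrain and striatum from several brains of 1 sex was pooled for each library, with 3 litters per sex, and CX3CR1+ CD206- cells were sorted by YFP into ARG1+ and ARG1- microglia. There were 3 libraries in each of 4 groups, ARG1- female, ARG1- male, ARG1+ female and ARG1+ male, named by the replicate numbers of the labels. The ARG1- libraries held between 30954399 and 60625170 counts and the ARG1+ libraries between 28356659 and 46569667. *Arg1* itself had 52 counts in ARG1+ female replicate 15, 2 in ARG1+ female replicate 8 and 0 in the other 10 libraries, so its transcript does not check the labels. Zero counts allow at most 0.106 CPM in the shallowest library, a limit that covers counting error only. Values are CPM, counts scaled to the normalized library total, and fold changes were fitted with the quasi-likelihood method of edgeR, with sex as a further term. In sorted but bulk samples, fewer cells with a transcript and less transcript per cell cannot be told apart.

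Promoter windows were available from RefSeq (GRCm38.p6) for 5 of the 8 genes, *Olfml3*, *Crybb1*, *Slco2b1*, *Sparc* and *Aif1*. The windows of the genes with the largest decrease and of the exception, both before any length correction, are printed. They let the transcripts that moved be set beside the one that did not. Each runs 5′ to 3′ from 250 bases before to 50 bases after the transcription start. Capitals mark the motifs searched on both strands, which were the PU.1 core GAGGAA, the PU.1 and IRF composite GGAANNGAA, the AP-1 motif TGANTCA and the TATA box TATAAA. No motif overlapped another in these windows.
Aif1, chr17:35176003-35176302 (minus strand): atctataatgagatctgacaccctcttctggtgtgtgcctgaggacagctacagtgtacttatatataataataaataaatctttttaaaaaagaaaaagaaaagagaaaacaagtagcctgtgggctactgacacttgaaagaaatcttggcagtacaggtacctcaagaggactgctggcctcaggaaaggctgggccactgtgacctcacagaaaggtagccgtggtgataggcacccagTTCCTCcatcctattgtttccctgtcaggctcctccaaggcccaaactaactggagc
Crybb1, chr5:112255570-112255869 (plus strand): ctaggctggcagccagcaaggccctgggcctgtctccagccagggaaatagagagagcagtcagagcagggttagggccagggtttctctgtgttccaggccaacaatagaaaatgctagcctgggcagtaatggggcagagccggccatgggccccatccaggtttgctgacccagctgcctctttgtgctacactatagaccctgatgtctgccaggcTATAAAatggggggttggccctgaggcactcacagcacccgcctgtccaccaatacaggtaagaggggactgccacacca
Slco2b1, chr7:99711291-99711590 (minus strand): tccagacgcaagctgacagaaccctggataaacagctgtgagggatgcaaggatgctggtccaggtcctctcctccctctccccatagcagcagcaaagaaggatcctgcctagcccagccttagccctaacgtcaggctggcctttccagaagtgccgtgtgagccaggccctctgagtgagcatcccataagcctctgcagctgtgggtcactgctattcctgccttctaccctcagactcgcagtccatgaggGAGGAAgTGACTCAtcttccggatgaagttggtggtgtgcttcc
The *Aif1* window holds the PU.1 core on the opposite strand, 7 bases before the start. The *Crybb1* window holds a TATA box 30 bases before the start and no other of the 4 motifs. The *Slco2b1* window holds the PU.1 core and the AP-1 motif just after the start, and the windows of its 2 further starts each hold the PU.1 core. The windows of *Olfml3* and *Sparc* hold none of the 4. Among 32851 promoter windows, 28.3% hold the PU.1 core, 7.81% the AP-1 motif, 13.6% the TATA box and 8.24% the composite, so that the PU.1 core in *Aif1* and *Slco2b1* is a common match.

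The first question was whether microglia sorted as ARG1+ differ from their ARG1- neighbors in these genes. *Aif1* (chr17:35170991-35176068, minus strand, GRCm38) had 356, 443 and 532 CPM in ARG1- females and 421, 509 and 476 in ARG1- males. It had 189, 153 and 233 CPM in ARG1+ females and 244, 147 and 176 in ARG1+ males. All ARG1+ libraries lay below all ARG1- libraries, and the mean fell from 456 ± 63.8 to 190.4 ± 40.2 CPM (SD, n = 6 each), or by -1.26 on the log2 scale (SE 0.15, edgeR adjusted p = 5.78e-04). *Crybb1* (chr5:112255815-112269585, plus strand) had 753, 648 and 748 CPM in ARG1- females and 533, 587 and 526 in ARG1- males. In ARG1+ females it had 245, 252 and 263 CPM, and in ARG1+ males 368, 229 and 277. The populations did not overlap, although ARG1+ male replicate 11 stood above the other ARG1+ libraries, and the log2 fold change was -1.21 (SE 0.14, edgeR adjusted p = 4.62e-04).

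*Gpr34* (chrX:13632089-13640858, plus strand) lies within *Cask* on the opposite strand and shares no annotated exon base with it. Its receptor transcript had 3874, 4807 and 5450.0 CPM in ARG1- females and 3967, 4413 and 5779 in ARG1- males. ARG1+ females had 2988, 2514 and 2582 CPM and ARG1+ males 2167, 2090.2 and 2627. The ARG1+ libraries were all below the ARG1- libraries, and the mean fell from 4715 ± 779.7 to 2495 ± 328 CPM (SD, n = 6 each; log2 fold change -0.92, SE 0.12, edgeR adjusted p = 6.55e-04). *Cask*, which scaffolds membrane proteins, fell by 0.49 on the log2 scale (SE 0.14, adjusted p = 0.0346).

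*Tmem119* (chr5:113793729-113800516, minus strand) had 6665, 5024 and 5648 CPM in ARG1- females and 4455, 5159 and 4407 in ARG1- males. It had 2732, 2939 and 2639 CPM in ARG1+ females and 3342, 3405 and 3268 in ARG1+ males. The populations were separate, and the ARG1+ libraries also lay close together within each sex. The log2 fold change was -0.77 (SE 0.11, edgeR adjusted p = 0.00109). *Selplg* (chr5:113818536-113832644, minus strand) is the next protein-coding gene, 18019 bases away on the same strand. *Selplg* lay between 3123 and 4643 CPM in ARG1- microglia (median 3968) and between 2809 and 3137 CPM in ARG1+ microglia (median 2963). The ranges touched at ARG1- male replicate 14, the lowest ARG1- library. The log2 fold change of *Selplg*, -0.40 (SE 0.09, edgeR adjusted p = 0.0139), was the smallest of the 7 decreases.

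Of the secreted proteins, *Sparc* (chr11:55394500-55423183, minus strand) lay between 4904 and 8077 CPM in ARG1- microglia (median 6875) and between 4086 and 4947 CPM in ARG1+ microglia (median 4332). The ranges overlapped only through ARG1+ male replicate 11, which lay just above ARG1- male replicate 14. *Olfml3* (chr3:103722222-103738001, minus strand) lay between 2749 and 4079 CPM in ARG1- microglia (median 3178) and between 1823 and 2368 CPM in ARG1+ microglia (median 2063), without overlap. Both secreted genes had a log2 fold change of -0.62 (SE 0.10), with an edgeR adjusted p of 0.00176 for *Sparc* and 0.00185 for *Olfml3*.

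*Slco2b1* (chr7:99657804-99711340, minus strand) behaved differently. The transporter transcript had 3561, 2369 and 2372 CPM in ARG1- females and 2129, 2263 and 1989 in ARG1- males, against 2613, 2364 and 1972 in ARG1+ females and 1914, 3056 and 2962 in ARG1+ males. Neither population was uniformly higher, and the log2 fold change was 0.03 with a 95% interval from -0.32 to 0.37 (edgeR adjusted p = 0.929). This interval does not reach the decrease fitted for any other of the genes, of which *Selplg* at -0.40 was nearest, although the intervals of *Slco2b1* and *Selplg* (-0.60 to -0.19) overlap. These fits keep the trend on transcript length. With the trend on coding transcript length and GC content removed, *Slco2b1* stood at -0.18 and *Selplg* at -0.12, and neither passed. Within each library, *Tmem119* had 1.87 to 2.38 counts for each *Slco2b1* count in ARG1- libraries and 1.05 to 1.75 in ARG1+ libraries. This ratio does not depend on library scaling. It restates the fold changes of the same counts, and any trend on transcript length remains in it. Reads of *Slco2b1* cannot be fully told apart from those of *Gm15635*, an annotated antisense gene that shares 471 exon bases with it, because the library kit does not mark strand.

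**Figure D1:**
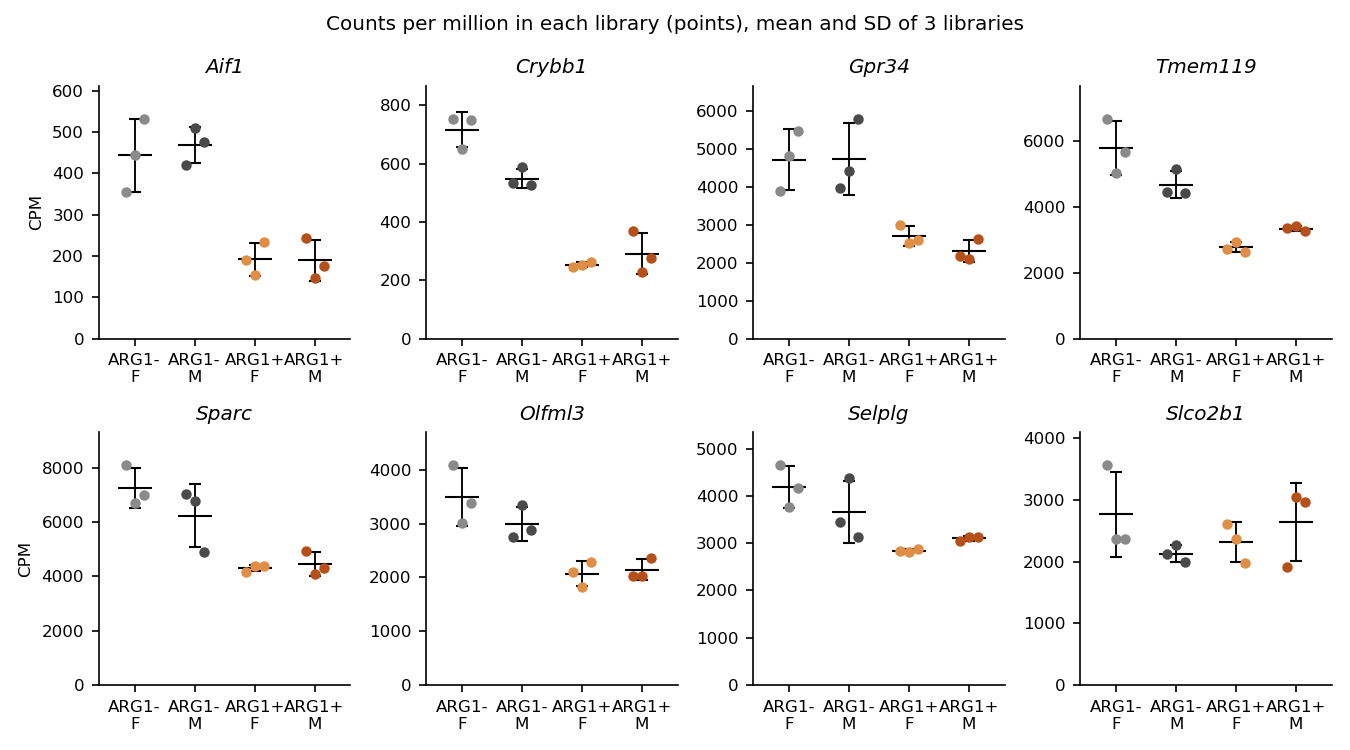
CPM (y axis, linear, from 0) of the 8 genes in each of the 12 libraries, as points by group (F, female; M, male), with the mean and SD of 3 libraries. *Aif1*, *Crybb1*, *Gpr34*, *Tmem119* and *Olfml3* show no overlap between ARG1- and ARG1+ libraries, *Selplg* and *Sparc* touch at ARG1- male replicate 14, and *Slco2b1* overlaps fully.

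In all, 7 of the 8 genes were lower and 0 were higher at an adjusted p under 0.05, where 9.42% of all genes tested were lower and 6.44% were higher. For 5 of the 8, all ARG1+ libraries lay below all ARG1- libraries, as they did for 6.56% of all genes tested. The median log2 fold change was -0.70 over the 8 genes and 0.06 over all genes tested. Together the 8 genes held 2.46% to 2.90% of the counts of ARG1- libraries and 1.78% to 1.90% of those of ARG1+ libraries. When libraries were scaled on housekeeping genes instead, the median over all genes moved to 0.19, the calls went from 1089 higher and 1593 lower to 1571 higher and 1043 lower, and *Selplg* no longer passed (log2 fold change -0.26, adjusted p = 0.0809), while the other 6 genes still passed.

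Levels between genes can be compared only per length. Per kilobase of the longest annotated coding transcript, *Sparc* was the highest of the 8 in ARG1- microglia at 2931 ± 447 CPM per kb (SD, n = 6), followed by *Tmem119* at 2331 ± 376, *Gpr34* at 2258 ± 373 and *Selplg* at 2115 ± 313, and neighbors in this order did not differ beyond their spread. *Crybb1* at 717 ± 115, *Olfml3* at 593 ± 87.9, *Slco2b1* at 559 ± 129 and *Aif1* at 521 ± 72.9 CPM per kb formed a lower tier, and within it only *Crybb1* and *Aif1* were apart by more than their SDs. In ARG1+ microglia the order on this scale was *Sparc* at 1902 ± 132, *Selplg* at 1603 ± 79.8, *Tmem119* at 1362 ± 147, *Gpr34* at 1195 ± 157, *Slco2b1* at 566 ± 111, *Olfml3* at 385 ± 36.0, *Crybb1* at 309 ± 56.3 and *Aif1* at 218 ± 46.0. Here *Tmem119* and *Gpr34*, *Olfml3* and *Crybb1*, and *Crybb1* and *Aif1* were neighbors within their spread. *Selplg* thus stood above *Tmem119* and *Gpr34*, and *Slco2b1* above *Olfml3* and *Crybb1*. Among 12590 coding genes ranked on this scale, all 8 were within the first 85 in ARG1- and the first 176 in ARG1+ microglia, so ARG1+ cells still had these transcripts at high levels. The tier of *Olfml3* depends on its annotation, in which the longest coding transcript has 5465 bases and the other 874.

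Transcript length moved with the fold change. The longest coding transcript has 875 bases in *Aif1*, 882 in *Crybb1*, 1855 in *Selplg*, 2088 in *Gpr34*, 2242 in *Tmem119*, 2300 in *Sparc*, 4381 in *Slco2b1* and 5465 in *Olfml3*. Among genes with a mean of at least 100 CPM, the median log2 fold change was -0.88 for 35 genes of up to 1000 bases, -0.46 for 355 genes of up to 2000 bases, -0.09 for 851 genes of up to 4000 bases and 0.20 for 633 longer genes. The share lower at an adjusted p under 0.05 fell over these classes from 82.9% to 58.6%, 20.7% and 5.37%. *Aif1*, *Crybb1* and *Selplg* were therefore in classes in which most genes fell, whereas *Gpr34*, *Tmem119*, *Sparc* and *Olfml3* were not. *Aif1*, at -1.26, and *Crybb1*, at -1.21, lay below the median of their class, -0.88. *Selplg*, at -0.40, did not lie below the median of its class, -0.46.

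A fit that removed each library's trend on exon length and GC content left 7 of the 8 genes lower, where 1571 of the 16908 genes tested were. The class medians still ran from -0.81 to 0.06. Another fit, chosen after seeing the data, took the trend from coding transcript length and GC content in genes of at least 100 CPM. The class medians then lay between -0.12 and -0.06. In that fit the log2 fold change was -0.49 for *Aif1* (edgeR adjusted p = 0.00204), -0.62 for *Crybb1* (0.00222), -0.53 for *Gpr34* (0.0130), -0.72 for *Tmem119* (1.96e-04), -0.48 for *Sparc* (0.00469) and -0.93 for *Olfml3* (3.31e-04). In this fit 5.21% of all genes tested were lower and 4.58% were higher. *Selplg*, at -0.12, no longer passed (adjusted p = 0.560), and *Slco2b1* stood at -0.18 (adjusted p = 0.333). The order among the genes thus changed with the length trend. In the class of *Aif1* and *Crybb1* the median moved from -0.88 to -0.11. For *Olfml3* the correction rests on the 5465-base transcript. For *Selplg* it rests on 1855 bases, where its exons together cover 4272. In the fit on exon length and GC content, *Selplg* was at -0.41 (edgeR adjusted p = 0.00437), so its call depends on which length is used.

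**Figure D2:**
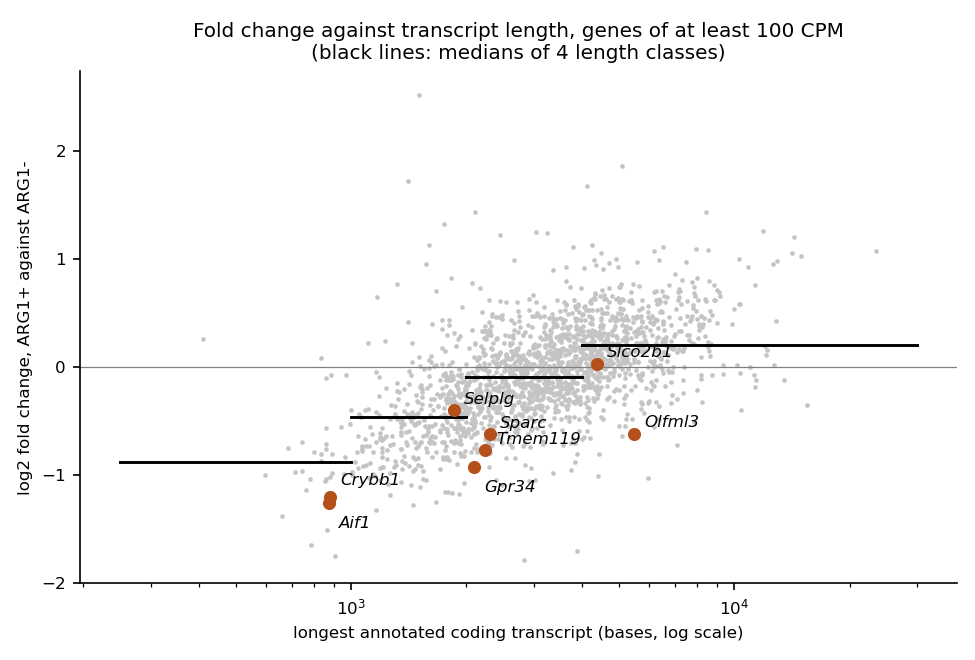
Log2 fold change between ARG1+ and ARG1- microglia (y axis) against the longest annotated coding transcript in bases (x axis, log scale) for coding genes with a mean of at least 100 CPM (grey), with the 8 genes in orange and the median of each of 4 length classes as a black line. Medians run from -0.88 in the shortest class to 0.20 in the longest. All of the 8 genes except *Selplg* lie below the line of their class.

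The ARG1 effect was then fitted within each sex. In females, 7 of the 8 genes were lower, where 4.16% of all genes tested were. *Crybb1* stood at -1.50 on the log2 scale (SE 0.16, edgeR adjusted p = 0.00138), *Aif1* at -1.21 (SE 0.22, adjusted p = 0.0125), *Tmem119* at -1.06 (SE 0.11, adjusted p = 0.00116) and *Gpr34* at -0.81 (SE 0.16, adjusted p = 0.0184). *Olfml3* and *Sparc* stood at -0.75 and *Selplg* at -0.56. Without ARG1+ female replicate 7 or without ARG1+ female replicate 8, only 2 of the 8 genes, *Tmem119* and *Crybb1*, passed in females. The genes lower over the whole table went from 703 to 35 and 91 in these fits, while the fitted changes of the genes that no longer passed stayed near those with all libraries, at -1.16 and -1.04 in *Aif1*, -0.85 and -0.73 in *Gpr34* and -0.70 and -0.73 in *Sparc*.

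In males, 4 of the 8 genes were lower, where 3.10% of all genes tested were. These were *Aif1* at -1.31 (SE 0.22, edgeR adjusted p = 0.0177), *Gpr34* at -1.04 (SE 0.16, adjusted p = 0.0145), *Crybb1* at -0.91 (SE 0.15, adjusted p = 0.0179) and *Tmem119* at -0.49 (SE 0.10, adjusted p = 0.0309). *Sparc* (-0.49, adjusted p = 0.0556), *Olfml3* (-0.48, adjusted p = 0.0575) and *Selplg* (-0.24, adjusted p = 0.260) did not pass, and *Slco2b1* was at 0.31 with a 95% interval from -0.12 to 0.75. The male calls rested on few libraries, as 0 genes passed without ARG1+ male replicate 12 or replicate 16, 1 passed without ARG1- male replicate 6, and 0 passed when the 6 male libraries were fitted alone. Over the whole table the genes lower in males went from 524 to 1, 5, 55 and 0 in these 4 fits. The fitted changes moved less, to -1.13 and -1.24 in *Aif1*, -0.96 and -1.13 in *Gpr34*, -0.74 and -0.86 in *Crybb1* and -0.48 and -0.45 in *Tmem119* without replicate 12 and without replicate 16. With the trend on coding transcript length removed, 2 of the 8 passed in males, *Tmem119* and *Olfml3* (-0.92, edgeR adjusted p = 0.0178). In that fit 131 of the 16908 genes tested were lower in males.

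**Figure D3:**
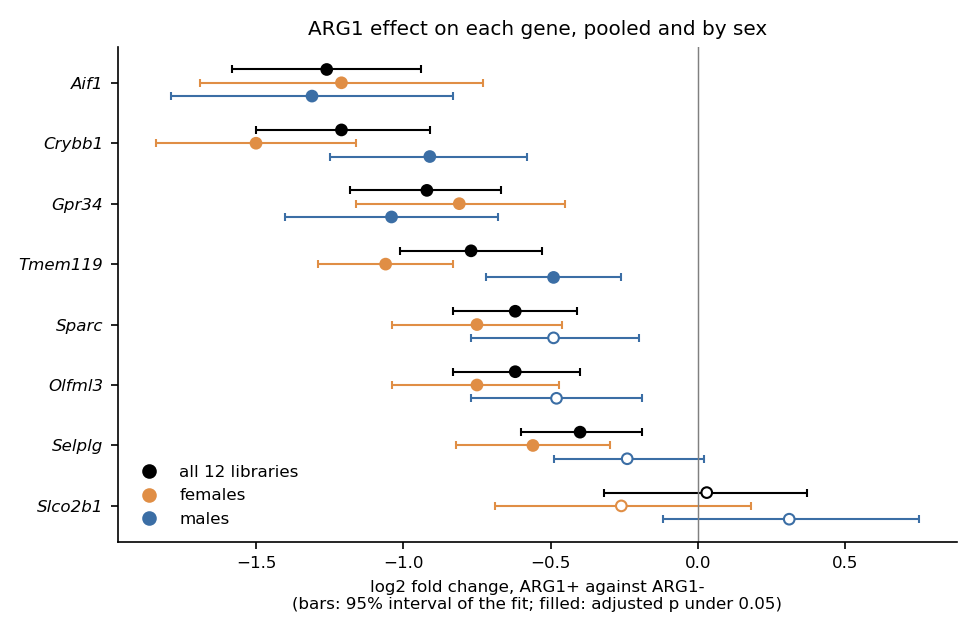
Log2 fold change between ARG1+ and ARG1- microglia (x axis) for each of the 8 genes over all 12 libraries and within each sex, with 95% intervals of the edgeR fit as bars and filled points for an adjusted p under 0.05. The intervals of *Slco2b1* include 0 in each of the 3 fits, and females and males are farthest apart in *Crybb1*, at -1.50 and -0.91, *Tmem119*, at -1.06 and -0.49, and *Slco2b1*, at -0.26 and 0.31.

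The difference of the ARG1 effect between the sexes was tested itself. None of the 8 genes passed at an adjusted p under 0.05, nor did any other gene in edgeR (0% of genes tested), while 9.32% of genes had an unadjusted p under that limit. DESeq2's Wald test called 161 genes with a higher and 124 with a lower effect in females and none of the 8. Of the 8, *Tmem119* (log2 difference -0.58, 95% interval from -0.90 to -0.25, edgeR adjusted p = 0.433) and *Crybb1* (-0.59, from -1.06 to -0.11, adjusted p = 0.486) were under it, both with the larger fitted decrease in females. For the other 6 genes the interval included 0, from -1.19 to 0.05 in *Slco2b1* and from -0.56 to 0.76 in *Aif1*. Differences between the sexes within these intervals were not excluded with this number of libraries.

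Females and males were also compared within each population. In ARG1- microglia, none of the 8 genes differed at an adjusted p under 0.05, where 0.0946% of all genes tested did. At an unadjusted p under that limit, 2 of the 8 were higher in females, where 5.31% of all genes tested were. These were *Tmem119*, at 0.31 on the log2 scale (edgeR adjusted p = 0.440), and *Crybb1*, at 0.39 (edgeR adjusted p = 0.464). The ARG1- females all lay above the ARG1- males in *Crybb1*, whereas in *Tmem119* the ranges overlapped. How many of all genes separate the sexes in this way was not counted in either population, so such separation adds nothing to these tests. In ARG1+ microglia, again none of the 8 differed at an adjusted p under 0.05, where 0.0355% of all genes tested did. Before adjustment, *Tmem119* alone was lower in females (-0.27, edgeR adjusted p = 1.0), as were 1.79% of all genes tested, and the ARG1+ females all lay below the ARG1+ males.

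Other microglial genes were taken from lists, which were also drawn up with earlier results known. Of 32 further genes for microglial surface and other membrane proteins, 17 were lower and 2 were higher in ARG1+ microglia, with a median log2 fold change of -0.32. Of all genes tested, 9.42% were lower and 6.44% were higher. The largest decreases were in *Ecscr* (-1.03, SE 0.11, edgeR adjusted p = 3.08e-04), *Tyrobp*, *Upk1b* and *Ltc4s*, the leukotriene C4 synthase (-0.97, adjusted p = 0.00169). *Tyrobp*, the signaling adaptor of TREM2, fell from 1317 ± 137 to 661 ± 160.2 CPM (SD, n = 6 each; edgeR adjusted p = 0.00153), and *Upk1b* from 56.1 ± 12.4 to 29.2 ± 15.4 CPM (adjusted p = 0.0176). The 2 genes that rose were *Ptprc* (0.45, adjusted p = 0.0186), which encodes CD45, and *Cd33* (0.42, adjusted p = 0.0453). The receptors *Csf1r* (0.05, adjusted p = 0.861) and *Cx3cr1* (0.08, adjusted p = 0.752), of which CX3CR1 was used in the sort, did not pass in either direction, like *Slco2b1*.

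Of 15 further genes for secreted and lysosomal proteins, 6 were lower and 1 was higher. For these and for the regulators below, the shares of all genes tested were 9.42% lower and 6.44% higher. *Cst3*, the protease inhibitor cystatin C, fell from 17484 ± 1434 to 8498 ± 1832 CPM (SD, n = 6 each; log2 fold change -1.04, edgeR adjusted p = 6.76e-04). *Rnase4* (-0.91) and the complement gene *C1qb* (-0.67) fell as well, and *Lyz2*, a lysozyme, rose by 0.76 on the log2 scale (adjusted p = 0.00647). Of 16 regulators of the microglial lineage, 1 was lower, *Spi1* (-0.58, adjusted p = 0.00230), which encodes PU.1, and 4 were higher, among them *Runx1* (1.01), *Zeb2* (0.70) and *Sall1* (0.43). These lists too depended on length. With the coding length trend removed, 881 genes of the whole table were lower and 775 higher. In that fit 8 surface and membrane genes were lower and 0 higher, 2 secreted genes were lower and 1 higher, and 3 regulators were lower and 2 higher.

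**Figure D4:**
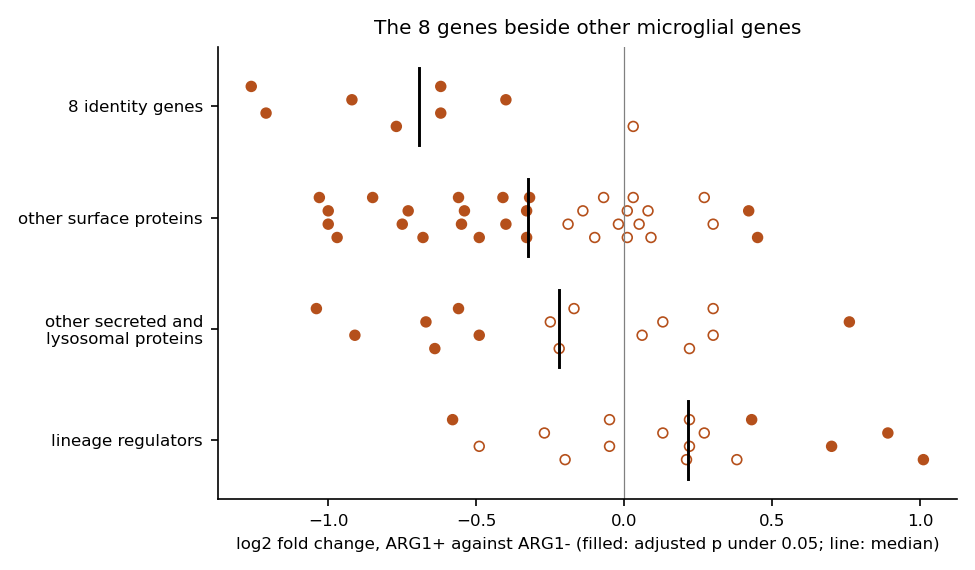
Log2 fold change between ARG1+ and ARG1- microglia (x axis) of the 8 genes, of 32 other surface and membrane proteins, of 15 other secreted and lysosomal proteins and of 16 lineage regulators, with filled points for an edgeR adjusted p under 0.05 and a line at each median. The medians are -0.70, -0.32, -0.22 and 0.21.

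The families and partners of the 8 genes were examined next. No other member of the *Slco*, SPARC or olfactomedin families passed, of 4, 2 and 3 tested, and apart from *Slco4a1* (86.8 ± 31.0 CPM in ARG1-) and *Olfml2b* (125 ± 27.6 CPM in ARG1-) their means were under 6 CPM. Of the crystallins, *Cryba4*, which lies 3296 bases from *Crybb1* on the opposite strand, fell from 99.3 ± 11.8 to 51.7 ± 9.62 CPM (SD, n = 6 each; log2 fold change -0.94, edgeR adjusted p = 0.00109), and 2 others tested did not pass. *Cryba4* also has a short transcript, of 808 bases, and with the coding length trend removed 0 crystallins of this list passed. *Tpst2*, on the other side of *Crybb1*, encodes a tyrosine sulfotransferase that modifies PSGL-1 and stood at -0.25 (adjusted p = 0.104). Of 12 tested genes that build or bind PSGL-1, *St3gal4* (-0.55, adjusted p = 0.0483) and *C1galt1c1* (-0.48, adjusted p = 0.0335), which act in its glycosylation, fell, a share to be set beside the 9.42% of all genes. Neither passed with DESeq2 size factors, housekeeping scaling, no filter or the coding length trend removed, and leaving out 1 library gave 0 or 1 lower.

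Around *Gpr34*, 1 of 4 tested genes listed for lysophosphatidylserine signaling fell, the hydrolase *Abhd6* (-0.64, edgeR adjusted p = 0.00817). Another of these, the neighboring receptor *Gpr82*, was under 1 CPM on average in both populations. The listed genes *Gpr174* and *P2ry10* had at most 0 and 1 counts in any library and were not tested. Among 7 tested partners of IBA1 in actin remodeling, *Coro1a* (-0.70, adjusted p = 6.76e-04) and *Pak1* (-0.57, adjusted p = 0.00544) fell. Both shares are to be set beside the 9.42% of all genes tested that were lower. Of the genes next to the others on the chromosome, *Lst1* beside *Aif1* (-1.33, adjusted p = 0.00106), *Atox1* beside *Sparc* (-1.14, adjusted p = 0.00360) and *Iscu* beside *Tmem119* (-0.51, adjusted p = 0.0144) fell. *Prrc2a* on the other side of *Aif1* (0.72, edgeR adjusted p = 0.303), *Coro1c* beside *Selplg* (0.16, adjusted p = 0.366) and *Tpbgl* beside *Slco2b1* (0.10, adjusted p = 0.762) did not pass. Nor did *Atg4a-ps* and *Gm10964* beside *Olfml3*, both under 1 CPM on average. Of all genes tested, 9.42% were lower.

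Likeness to each gene was measured as the root mean square (RMS) difference, on the log2 scale over the 12 libraries, between profiles centered on their own means, among 1912 other genes of at least 100 CPM. The values describe libraries that share the ARG1 difference, the depth and the length trend. *Tmem119* was closest to *Abi3* (RMS 0.076), *Ckb* (0.104) and *Slc2a5* (0.121), and *Olfml3* to *Ergic3* (0.107), *Tmem176b* (0.121) and *Xbp1* (0.129). *Gpr34* was closest to *Evi2a* (0.103), *Rnase4* (0.132) and *Siglech* (0.140). *Crybb1* was closest to *Alox5ap* (0.176), *Ltc4s* (0.178) and *Grap* (0.186), and *Aif1* to *Rpl7* (0.110), *Rgs10* (0.145) and *Rps9* (0.160), 2 of which are ribosomal protein genes. *Sparc* was closest to *Capzb* (0.108), *Tm2d2* (0.117) and *Tspan7* (0.119), and *Selplg* to *Stard3* (0.085), *Bin1* (0.096) and *Trf* (0.101).

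*Slco2b1* was closest to *Gm15635* (0.036), the antisense gene with which it shares exon bases, then to *Cyfip1* (0.072) and *Csf1r* (0.089). Among the 8 genes themselves, the nearest pairs were *Olfml3* and *Selplg* (0.155), *Tmem119* and *Olfml3* (0.164), *Sparc* and *Selplg* (0.164), *Olfml3* and *Sparc* (0.168) and *Tmem119* and *Sparc* (0.172). *Aif1* and *Slco2b1* were the farthest apart (0.800).

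Summed levels of markers of other cells differed between the populations in both directions. The summed level of 8 astrocyte genes was 185 to 226 CPM in ARG1- and 130.4 to 156 CPM in ARG1+ libraries, and that of 8 oligodendrocyte genes was 263 to 384 and 171 to 266 CPM. Only *Slc1a3* of the astrocyte genes passed, from 176 ± 20.1 to 131 ± 4.95 CPM (SD, n = 6 each; edgeR adjusted p = 0.00817), and it held most of that sum. Only *Cnp* of the oligodendrocyte genes passed, from 194 ± 26.1 to 133 ± 10.9 CPM (adjusted p = 0.00467). Genes of border macrophages summed to 307 to 516 CPM in ARG1- and 405 to 842 CPM in ARG1+ libraries. *Mrc1*, which encodes the CD206 used to exclude these cells, was at 121 ± 16.1 and 147 ± 46.4 CPM. *Cd163* and *Lyve1* had 0 counts in all ARG1- libraries and means of 0.119 and 0.0662 CPM in ARG1+ libraries. Of 7 tested border macrophage genes, *Stab1* rose (0.82, edgeR adjusted p = 0.0277), and the median log2 fold change was 0.67. The other fitted changes ran from -0.83 in *Cbr2* to 3.01 in *Ms4a7*, and none of them passed. Endothelial genes summed to 47.9 to 128 CPM and 113 to 139.9 CPM, with 0 of 6 tested passing in edgeR and 2 of 6 at an unadjusted p under 0.05. Neuronal genes summed to at most 20.2 CPM, monocyte genes to at most 14.1 CPM, pericyte and fibroblast genes to at most 3.54 CPM and lymphocyte genes to at most 4.32 CPM. Of 4 tested monocyte genes, *Plac8* fell from 6.75 ± 1.80 to 1.32 ± 0.778 CPM (edgeR adjusted p = 0.00466) and *Fn1* rose from 0 counts in all ARG1- libraries to 0.691 ± 0.745 CPM (adjusted p = 0.0351). Of the pericyte and fibroblast genes, *Col1a2* rose from 0.00857 ± 0.0133 to 0.389 ± 0.381 CPM (adjusted p = 0.0170). Neutrophil genes summed to 293 to 363 and 331 to 506 CPM, nearly all of it *Csf3r*, the 1 of 9 tested, which did not pass (0.25, adjusted p = 0.159). Immediate early genes summed to 298 to 474 CPM in ARG1- and 387 to 471 CPM in ARG1+ libraries, and *Egr1* (1.31) and *Atf3* (0.99) rose. Of 10 housekeeping genes, *Ppia* and *Hprt* fell and *Polr2a* rose. All calls on these lists stand beside 9.42% lower and 6.44% higher among all genes tested. The part of these differences in the levels of the 8 genes was not tested.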

How the data were processed

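RNA-seq was performed by the authors on 12 libraries of sorted YARG microglia. Per the labels and the study's methods, cDNA was made with SMART-Seq v4 and libraries with Nextera XT, reads were demultiplexed with bcl2fastq 2.20.0, aligned to GRCm38 with STAR 2.6.1d and counted on genes with featureCounts 1.5.1. The deposited values are these raw counts, without normalization, and 0 columns were left unused. The options of featureCounts are not given in the sources used here.

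The counts were analysed with edgeR 4.0.16 in R 4.3.3 (filterByExpr on 4 groups, TMM, glmQLFit, glmQLFTest, Benjamini–Hochberg adjustment over 16908 genes, limit 0.05). Each standard error is the absolute log2 change divided by the square root of F. The ARG1 effect was fitted with sex as a term, and the other contrasts in a fit of group means. The script was tested on simulated data. GENCODE M21 matched 55227 of 55487 identifiers. Replicate libraries differed by 40.7 to 125 times their degrees of freedom in a chi-square test, so none was a repeat deposit. Alternatives included DESeq2 1.42.0 and trends fitted with mgcv 1.9.3.

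The 8 genes and all lists were chosen with earlier results of these data known. Besides the 8 genes, the text names up to 4 genes of a list (largest fold change among those passing, then highest level), the 3 genes most like each of the 8 and their neighbors on the chromosome. *Csf1r*, *Cx3cr1*, *Ptprc*, *Cd33*, *Sall1*, *Csf3r*, *Slco4a1*, *Olfml2b*, *Mrc1*, *Cd163*, *Lyve1*, *Ms4a7* and *Cbr2* were named after their values were seen.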

Additional observations from a re-analysis of the deposited data

Results flagged for a closer look

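In 18 groups of 6 libraries (the 8 genes and the library total in each population), 3 held a library far from the other 5 by Dixon's criterion, which chance meets in about 1 of 20 groups. *Crybb1* was 368 CPM in ARG1+ male replicate 11, against 229 to 277 in the other ARG1+ libraries. *Sparc* was 4947 CPM in the same library, against 4086 to 4377. *Slco2b1* was 3561 CPM in ARG1- female replicate 1, against 1989 to 2372 in the other ARG1- libraries. Without ARG1+ male replicate 11, 7 of the 8 genes were still lower in ARG1+ microglia.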

How the results depend on the processing

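Over all 12 libraries, 7 of the 8 genes were lower under 21 of 23 alternatives, and 6 under housekeeping scaling and with the coding length trend removed, where *Selplg* did not pass. The 12 fits that each left out 1 library all gave 7. In females, leaving out 1 library gave 2 to 7 genes. In males it gave 0 to 5, the fit of the male libraries alone gave 0 and the coding length trend gave 2. None of the 8 genes passed in the other contrasts under any alternative, although other genes did, and the fitted sign of *Slco2b1* turned in 6 of 23. DESeq2's Wald test called 2155 genes higher and 1976 lower over all genes, against 1089 and 1593. No paired analysis was possible because the groups share no replicate number, and the labels do not say which libraries share a litter. With 3 libraries a group, p-values measure only the spread between these libraries.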
